A study of Vitis vinifera with 54 samples.

Results

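TL1 (gene 100232841) and TL3 (gene 100232879) encode thaumatin-like proteins of the grape berry, and these 2 genes of the 25133 in the table were followed through development in 6 ecological zones. They were picked by their gene numbers because earlier results of these data had shown them to be strongly induced and abundant, so their levels, their shares and their changes between stages are given as a description without a test. Flesh of Chardonnay berries, without skin and seeds, was sequenced at enlargement (E, 40 days after early flowering, or DAP), at color transition (V, 80 DAP) and at maturity (M, 120 DAP) in the zones HJZ, ZHYS, CC, XG, XLS and HSB of Ningxia. Each of the 18 groups, named by stage and zone as in V-HSB, had 3 biological replicates of 15 berries each, which gave 54 libraries of the same cultivar with no treatment. The values are TPM, a measure of transcript abundance that corrects for the length of each gene and brings all libraries to a common sum, so that levels of different genes can be compared with each other but the depth behind a value is unknown.

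Thaumatin-like proteins form family 5 of the pathogenesis-related (PR) proteins, named after the sweet protein thaumatin of a tropical fruit. They are small proteins held together by many disulfide bonds, and several of them act against fungi. In grape berries they accumulate from the onset of ripening, called veraison or color transition, and together with chitinases they make up much of the soluble protein that stays in white wine and can turn it hazy. In the RefSeq annotation of the assembly ASM3070453v1, TL3 and TL1 lie next to each other on chromosome 2 with 0 annotated genes between them. Because they belong to the same family, fragments that fit both genes could be split between them or dropped. How such fragments were treated is not given in the sources used here.

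The libraries differed in composition, since the 100 genes with the highest TPM held from 29.1% of all TPM in E-HSB to 61.4% in E-HJZ (means of 3 libraries). V-HSB stood apart from the other V groups, since over genes its mean profile correlated more with E-HSB (Pearson r of log2(TPM + 1) = 0.948) than with M-HSB (0.826), against 0.798 to 0.837 with E and 0.905 to 0.982 with M in the other zones. Within groups the replicates correlated at 0.957 or more, except that V-XLS replicate 2 had 0.930 with replicate 1 and 0.900 with replicate 3. TL1 and TL3 are therefore given library by library in both groups. Seed and skin markers could not be matched by name in the reference used here, so the freedom of the flesh from other tissues was not checked.

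Both genes had their lowest levels at the enlargement period, were higher at the color transition period in every zone, and were still high at maturity. Among all genes TL3 was not low even at the enlargement period, with ranks from 65 to 355 in the E libraries. In all 6 zones each of the 3 V libraries was above each of the 3 E libraries, for TL1 and for TL3. Among the 18 V libraries TL1 ranged from 3154 to 52949 TPM with a median of 26993 TPM, and TL3 from 1921 to 33098 TPM with a median of 12589 TPM. After V the level was lower again in 5 zones, while in HSB both genes reached their highest level at maturity. In whole flesh, more RNA per cell and a larger share of cells that make it cannot be told apart.

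TL1 in HJZ had 725, 572 and 774 TPM at E, 27014, 27081 and 25604 TPM at V, and 14517, 13462 and 13983 TPM at M. This zone had the highest TL1 of the enlargement period, and its V mean was 38.5-fold its E mean, the smallest V to E ratio of TL1 among the zones with all libraries in. In ZHYS the gene had 56.7, 73.1 and 73.2 TPM at E, 52949, 44005 and 43645 TPM at V, and 23651, 21140.0 and 22407 TPM at M. The V-ZHYS libraries were the highest of all 54 for TL1, and the V mean was 693-fold an E mean that was low as well. The CC berries had 266, 345 and 239 TPM at E, 26971, 26519 and 27252 TPM at V, and 17186, 15773 and 15736 TPM at M. With a V to E ratio of 95.0 and a V level almost the same in the 3 replicates, CC lay between HJZ and ZHYS in the size of its increase.

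For XG the TL1 values were 593, 478 and 398 TPM at E, 34541, 32456 and 38311 TPM at V, and 22526, 22971 and 19816 TPM at M, with V 71.7-fold E. In XLS they were 319, 367 and 258 TPM at E, 11696, 26964 and 11169 TPM at V, and 10537, 11105 and 10825 TPM at M. Replicate 2 of V-XLS was 2.36-fold the mean of replicates 1 and 3, which were 1.06-fold the M-XLS mean, and the 3 M-XLS libraries were nonetheless all below the 3 V-XLS libraries. Without this library the log2 fold change from E to V was 5.19 in XLS, below the 5.28 of HJZ, so which of these zones had the smallest increase of TL1 depended on it. The HSB berries had 12.7, 9.72 and 7.83 TPM at E, 3154, 4893 and 6845 TPM at V, and 23052, 22432 and 23042 TPM at M. At E this was the lowest level of any zone, 68.4-fold below E-HJZ, and the 3 E-HSB libraries did not overlap with those of any other zone. Without HSB, the E means of TL1 still differed by 10.2-fold between the zones.

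TL3 was more even among the zones at the enlargement period. The HJZ libraries had 313, 211 and 334 TPM at E, 8495, 9799 and 10679 TPM at V, and 7085, 9399 and 9099 TPM at M, and the V and M values of this zone overlapped. In ZHYS TL3 had 340.4, 383 and 367 TPM at E, 22379, 21575 and 19106 TPM at V, and 12416, 13681 and 13357 TPM at M. The CC berries reached the highest TL3 of the study, with 484, 422 and 417 TPM at E, 30172, 33098 and 31047 TPM at V, and 16134, 18873 and 18518 TPM at M. There the V mean was 71.3-fold the E mean, the largest V to E ratio of TL3, and TL3 was above TL1 in all 3 V-CC libraries.

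In XG the TL3 values were 839, 819.5 and 606 TPM at E, 11172, 15919.9 and 12695 TPM at V, and 8147, 6657 and 6749.8 TPM at M. Those of XLS were 748, 921 and 871 TPM at E, 8851, 20036 and 12484 TPM at V, and 7353, 7727 and 8697 TPM at M, and V-XLS replicate 2 was again the highest of its group, 1.88-fold the mean of the other replicates. HSB had 756, 625 and 445 TPM at E, 1921, 3446 and 4314 TPM at V, and 13615, 14266 and 13789.5 TPM at M. Its E mean of 609 ± 156 TPM (SD, n = 3) lay within the range of the other zones, unlike that of TL1, and its V mean was only 5.30-fold the E mean, the smallest V to E ratio of TL3. The E means of TL3 differed by 2.96-fold between the zones, and the coefficient of variation within a group ran from 2.43% to 41.4% for TL3 and from 1.37% to 54.01% for TL1, with V-XLS at the upper end for both.

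**Figure D1:**
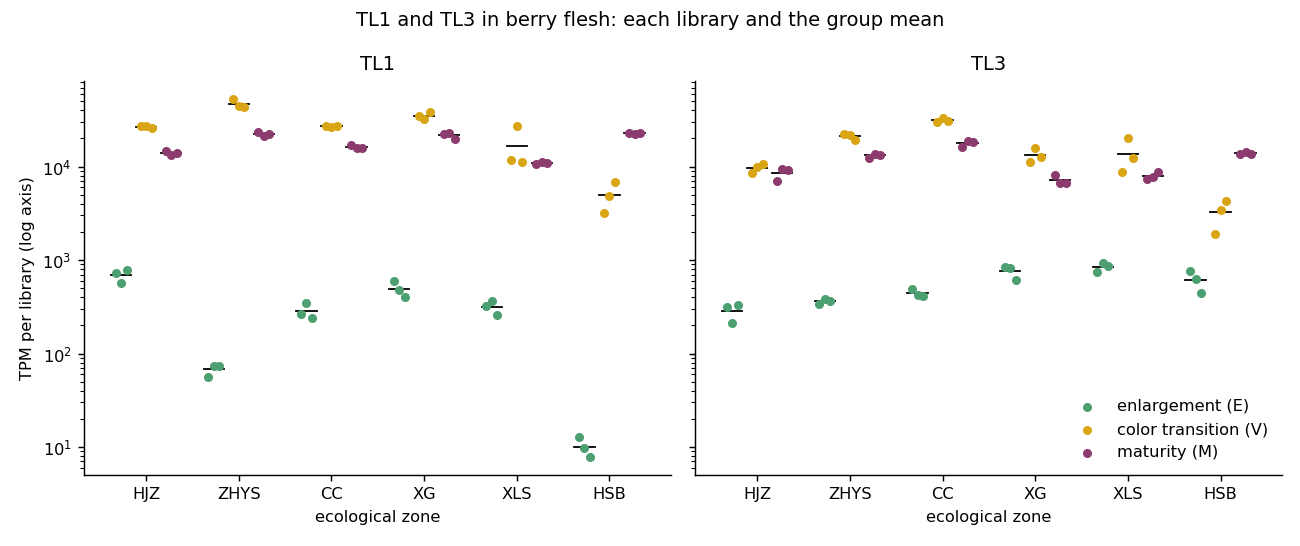
TPM of TL1 (left) and TL3 (right) in each of the 54 libraries, on a log axis, by zone and stage; points are libraries and black lines are means of 3. TL1 at the enlargement period ran from 7.83 TPM in HSB to 774 TPM in HJZ, whereas TL3 stayed between 211 and 921 TPM.

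The order of the zones changed with the stage. At V, TL1 was highest in V-ZHYS (46866 ± 5271 TPM) and then in V-XG (35102 ± 2968 TPM), whose libraries did not overlap with those of V-ZHYS. V-CC (26914 ± 369.9 TPM) and V-HJZ (26566 ± 834 TPM) followed and did not differ beyond their spread, then V-XLS (16609.7 ± 8971 TPM) and V-HSB (4964 ± 1847 TPM). At M the order was M-HSB (22842 ± 355 TPM), M-ZHYS (22399 ± 1256 TPM), M-XG (21771 ± 1708 TPM), M-CC (16232 ± 827 TPM), M-HJZ (13987 ± 528 TPM) and M-XLS (10822 ± 284 TPM), in which the first 3 groups overlapped (SD, n = 3 for each group).

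TL3 had another order. V-CC (31439 ± 1502 TPM) was followed by V-ZHYS (21020.1 ± 1705 TPM), V-XLS (13790.4 ± 5706 TPM), V-XG (13262 ± 2424 TPM), V-HJZ (9658 ± 1099 TPM) and V-HSB (3227 ± 1212 TPM), and the values of V-XLS overlapped with those of V-ZHYS, V-XG and V-HJZ. At maturity M-CC (17842 ± 1489 TPM) was highest, M-HSB (13890.1 ± 337 TPM) and M-ZHYS (13151 ± 657 TPM) came next, and M-HJZ (8528 ± 1258 TPM), M-XLS (7926 ± 694 TPM) and M-XG (7185 ± 835 TPM) were lowest, with overlapping libraries among these last 3 groups and between M-HSB and M-ZHYS (SD, n = 3 for each group). V-HSB was thus last at V for both genes, and M-HSB was first for TL1 and second for TL3 at M.

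At their peak the 2 genes took a noticeable part of the flesh transcriptome. Their summed share of all TPM was 6.79% ± 0.660 in V-ZHYS, 5.84% ± 0.124 in V-CC, 4.84% ± 0.265 in V-XG, 3.62% ± 0.0687 in V-HJZ, 3.04% ± 1.45 in V-XLS and 0.819% ± 0.305 in V-HSB (SD, n = 3). At the enlargement period the share lay between 0.0397% and 0.143% in the 18 libraries, and at maturity between 1.79% and 3.68%. The highest share in a single library, 7.53% in V-ZHYS replicate 1, lowers the TPM of all other genes of that library by 0.11 on the log2 scale.

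**Figure D2:**
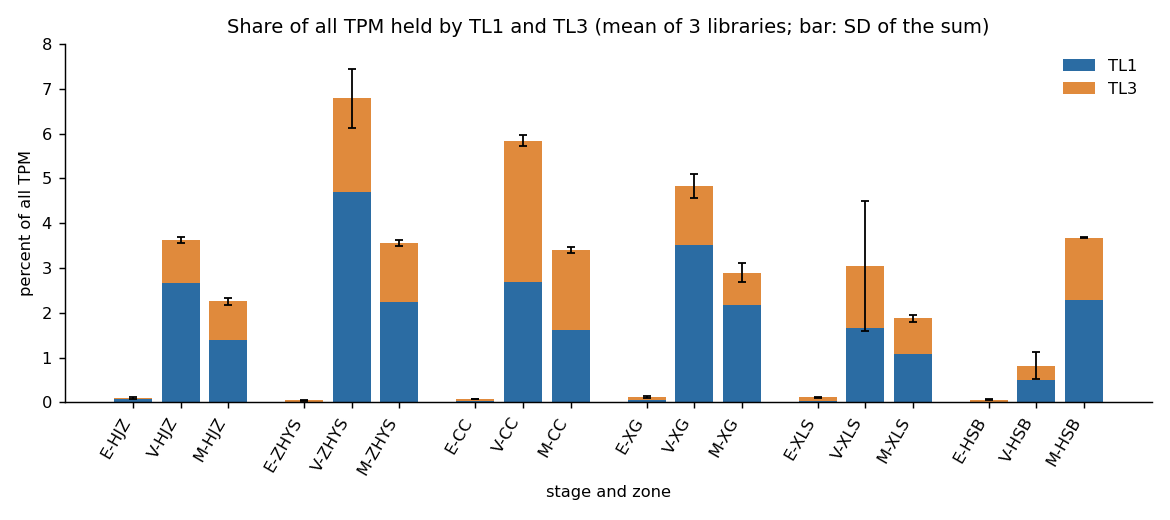
Share of all TPM held by TL1 (blue) and TL3 (orange) in each group, stacked, as the mean of 3 libraries, with the SD of the summed share as error bar. The sum was largest in V-ZHYS (6.79%), and in HSB it was larger at maturity (3.67%) than at color transition (0.819%).

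By rank within a library, TL1 was the most abundant gene in 4 of the 18 V libraries, 3 of V-ZHYS and 1 of V-XG, and TL3 in 2, both of V-CC. TL1 was among the 10 highest genes in 14 of the 18 V libraries and in all 18 M libraries, where its rank ran from 2 to 10. TL3 was among the 10 highest in 11 V and 10 M libraries. At the enlargement period the rank of TL1 ran from 75 in E-HJZ to 11331 in E-HSB, and that of TL3 only from 65 to 355.

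The size of the induction was also taken from a limma fit of log2(TPM + 1) over all genes and libraries. From E to V the log2 fold change of TL1 was 9.42 (SE 0.23) in ZHYS, 8.76 (SE 0.23) in HSB and between 5.28 and 6.58 in the other zones. For TL3 it was largest in CC, 6.16 (SE 0.23), and smallest in HSB, 2.36 (SE 0.23). HSB thus combined a large increase of TL1 with the smallest increase of TL3, and E-HSB had almost no TL1 but as much TL3 as the other zones. Over the 6 zones the mean was 6.97 (SE 0.09) for TL1 and 4.59 (SE 0.09) for TL3. The SE of the fit pools the replicate spread of all 18 groups for each gene, so it is the same in every zone. It does not show the wider spread of V-XLS and V-HSB, and for a mean over zones it leaves out the differences between zones. Quantile normalization, which gives every library the same distribution, moved some of these values by more than 1.5-fold. It gave 9.55 for TL1 in HSB, above its 9.13 in ZHYS, so the order of these zones turned, and for TL3 it gave 4.14 in HJZ, 3.47 in XG and 3.34 in XLS, in place of 5.09, 4.13 and 3.95. All genes together had a median log2 change from E to V between -0.213 in CC and 0.056 in HJZ.

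Of all 25133 genes, 1480 or 5.89% rose from E to V in the mean over the zones (limma adjusted p below 0.05 and log2 fold change above 1), and TL1 and TL3 are both among them, as follows from the way they were chosen. By the size of the mean increase TL1 was number 5 and TL3 number 35 of all genes. Within zones TL1 was between number 2 in HSB and number 31 in HJZ, and TL3 between number 22 in CC and number 196 in HSB. These positions use the increase that led to the choice of the genes and are no evidence beyond it.

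From V to M the zones showed 2 patterns. TL1 was lower at M than at V in 5 zones, without overlap of the libraries, with M means from 0.478 of the V mean in ZHYS to 0.652 in XLS and log2 fold changes from -1.06 (SE 0.23) to -0.49 (SE 0.23). Without replicate 2 of V-XLS the TL1 change in XLS was -0.08, so this library decided its size. With quantile normalization the TL1 change in HJZ was -0.32, in place of -0.93. TL3 was lower at M in the same 5 zones, with log2 fold changes from -0.87 (SE 0.23) in XG to -0.18 (SE 0.23) in HJZ, and in HJZ the libraries of the 2 stages overlapped. For TL3 in XLS the change was -0.72 (SE 0.23), and -0.41 without replicate 2 of V-XLS.

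In HSB, by contrast, both genes were higher at maturity, TL1 by 2.27 (SE 0.23) and TL3 by 2.18 (SE 0.23) on the log2 scale, at a median change of all genes of -0.209. At color transition they had reached 21.7% and 23.2% of their M means in HSB, against 153% to 209% for TL1 and 113% to 185% for TL3 in the other zones. The closeness of the V-HSB profile to that of E-HSB (r = 0.948 over genes) goes with this result, and its part in it was not tested. The V-HSB replicates themselves were spread, from 3154 to 6845 TPM for TL1 and from 1921 to 4314 TPM for TL3, with replicate 1 lowest and replicate 3 highest for both. In the M-HSB libraries the spread was small, with a coefficient of variation of 1.56% for TL1. From E to M the increase of TL1 was 2264-fold in HSB and from 20.3-fold in HJZ to 331-fold in ZHYS elsewhere, and that of TL3 was from 9.36-fold in XLS to 40.5-fold in CC. By the limits on p and size used for the steps, 9.99% of all genes rose from E to M. Averaged over all zones the V to M changes were -0.27 (SE 0.09) for TL1 and -0.18 (SE 0.09) for TL3, and without HSB they were -0.78 and -0.65. These SE leave out the differences between the zones, which went in opposite directions. With quantile normalization the mean change of TL1 over all zones was -0.02.

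**Figure D3:**
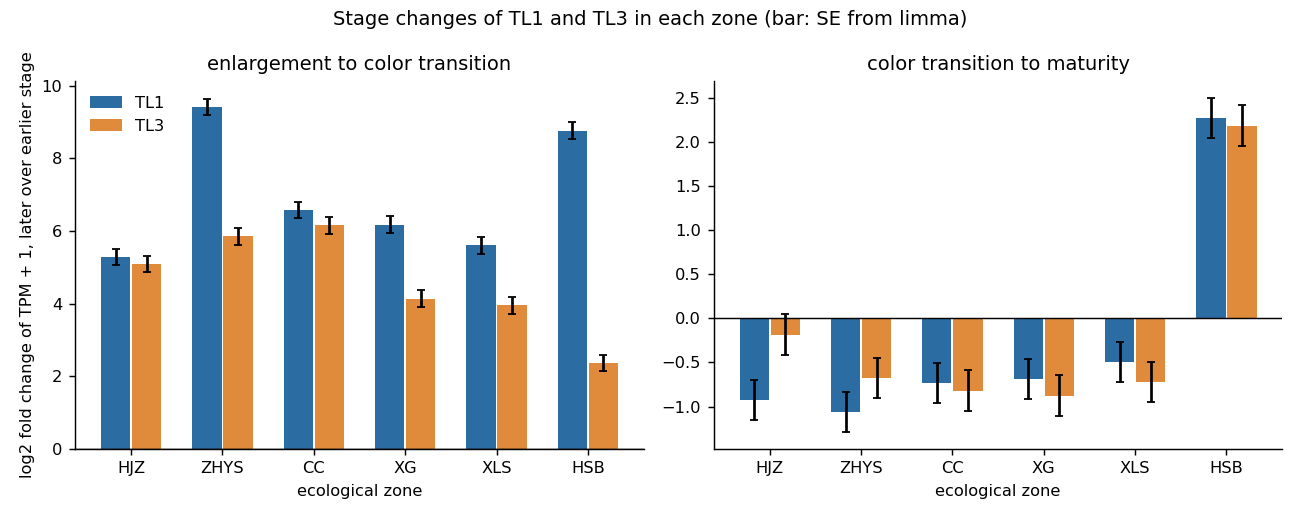
Log2 fold change of TPM + 1 of TL1 (blue) and TL3 (orange) in each zone from enlargement to color transition (left) and from color transition to maturity (right), later stage over earlier stage, with the SE of the limma fit. This SE is pooled over the 18 groups for each gene and is the same in every zone. In HSB the first step was 8.76 for TL1 and 2.36 for TL3, and HSB is the only zone with positive values at the second step (2.27 and 2.18).

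Whether the 2 genes kept the same proportion to each other in all zones was described with the ratio of TL1 to TL3 within a library, as log2 of TL1 + 1 over TL3 + 1 in TPM. Apart from the added 1, which counts for low values such as TL1 in E-HSB, it does not depend on the scaling of the library. The ratio is built from the same TPM values that show the induction in each zone, by which the genes were chosen, so it is given without a test. Each zone is set beside the other 5 zones of its stage, whose spread includes the differences among them.

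At the enlargement period TL3 exceeded TL1 in 15 of the 18 libraries. In the E-HSB libraries the log2 ratio was -5.79, -5.87 and -5.66, and none of the 15 other E libraries was below -2.56. Without the added 1, the E-HSB mean of TL1 was 0.0166 times that of TL3. The E-HSB mean was -5.77 ± 0.10 against -0.77 ± 1.27 in the other zones (SD, n = 3 and 15 libraries), a difference of -5.00. E-HJZ was at the other end with 1.21, 1.43 and 1.21, the only zone with more TL1 than TL3 at this stage. Its mean was 1.28 ± 0.13 against -2.18 ± 1.99 in the other zones (SD, n = 3 and 15 libraries), a difference of 3.46. E-ZHYS had the second lowest mean, -2.42 ± 0.13, and the means of E-CC, E-XG and E-XLS lay between -1.43 and -0.63 (SD, n = 3).

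At color transition TL1 exceeded TL3 in 14 of the 18 libraries. The 3 V-CC libraries had log2 ratios of -0.16, -0.32 and -0.19, with more TL3 than TL1 in each of them, and replicate 3 of V-XLS was the only other V library with more TL3. The V-CC mean was -0.22 ± 0.08 against 0.98 ± 0.54 in the other zones (SD, n = 3 and 15 libraries), a difference of -1.20. The V-HSB mean was 0.63 ± 0.11 (SD, n = 3), within the range of the other zones, although E-HSB had been far below them. Its TL1 and TL3 levels at V were both low, but in a proportion that lay between those of V-XLS and V-ZHYS.

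At maturity CC again had the lowest proportion of TL1, with log2 ratios of 0.09, -0.26 and -0.23. The M-CC mean was -0.13 ± 0.20 against 0.85 ± 0.43 in the other zones (SD, n = 3 and 15 libraries), a difference of -0.99. XG had the highest proportion with 1.47, 1.79 and 1.55, above every other M library. The M-XG mean was 1.60 ± 0.17 against 0.51 ± 0.38 in the other zones (SD, n = 3 and 15 libraries), a difference of 1.10. In the other 4 zones the mean M ratio lay between 0.45 and 0.77.

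Seen within zones, the mean log2 ratio of CC stayed between -0.65 and -0.13 at all 3 stages. In HJZ it was 1.28 ± 0.13 at E, 1.47 ± 0.20 at V and 0.72 ± 0.27 at M. In the other 4 zones it was negative at E and positive at V and M. The widest change was that of HSB, with -5.77 ± 0.10 at E, 0.63 ± 0.11 at V and 0.72 ± 0.06 at M (SD, n = 3 for each group).

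**Figure D4:**
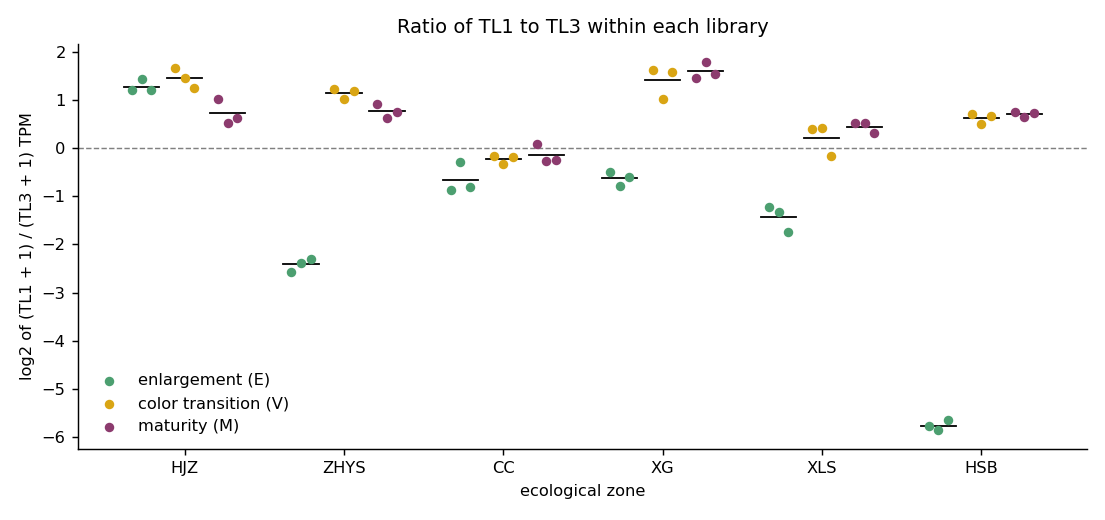
Log2 ratio of TL1 to TL3 (TPM + 1) in each library by zone and stage; points are libraries, black lines are means of 3, and the dashed line marks equal levels. E-HSB is lowest with a mean of -5.77, CC lies below 0 in the mean of every stage, and M-XG is the highest of the M groups with a mean of 1.60.

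The pattern of each gene over the 18 group means was compared with that of every gene reaching a group mean of 10 TPM, 12190 genes in all, by the Pearson correlation of log2(TPM + 1). These correlations are a description over 18 points that share stages and libraries. TL1 and TL3 had r = 0.908 with each other, which made TL3 number 86 among the genes most like TL1 and TL1 number 204 among those most like TL3. Closest to TL1 were LOC100247559 (r = 0.982), LOC100265026 (0.972), the gene 100242737, which has no symbol in the table used (0.968), LOC100264738 (0.968) and LOC100855221 (0.958). The gene 100242737 was abundant itself, with group means from 169 TPM in E-ZHYS to 28548 TPM in V-CC. Closest to TL3 were LOC100258305 (0.985), LOC100262112 (0.984), LOC100249306 (0.982), LOC100266039 (0.980) and LOC100255405 (0.979). The 2 lists of 5 shared 0 genes.

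LOC100265026, the second closest to TL1, is also the nearest protein-coding gene to TL3 in the annotation, on the side away from TL1. It and the other protein-coding genes up to 3 places away on either side of the pair were chosen after their values were seen, so their values are a description with no test. LOC100265026 averaged 6.82 ± 3.31 TPM at E, 275 ± 86.2 TPM at V and 349.5 ± 48.6 TPM at M (SD over 6 zones), at a log2 fold change from E to V of 5.21 (SE 0.08). It had 1.33 ± 0.129 TPM in E-HSB and 4.78 ± 1.12 TPM in E-ZHYS, the next lowest group (SD, n = 3), as its choice by likeness to TL1 over the same groups would bring with it. In HJZ, ZHYS and CC it was not lower at M than at V, in which it differed from TL1.

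LOC100263272, the nearest protein-coding gene to TL1 on its other side, averaged 213 ± 132 TPM at E, 3183 ± 2452 TPM at V and 1908 ± 730.0 TPM at M (SD over 6 zones) and was higher at V than at E in all 6 zones, at a mean log2 fold change of 3.80 (SE 0.15). It had its highest level in V-CC, 7785 ± 1777 TPM, as TL3 did, and its V-HSB mean was 18.8% of its M-HSB mean, beside the 21.7% of TL1. From V to M its mean change was -0.38 (SE 0.15).

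The other 4 neighbours had smaller changes or low levels. LOC100246096 had a log2 fold change from E to V of 1.499 (SE 0.09), higher at V in 5 of 6 zones, but at levels of at most 27.1 TPM and with its highest group mean in E-HSB. LOC100259841 had -1.39 (SE 0.12) at group means of at most 19.8 TPM. LOC100258133 had 0.92 (SE 0.07), and LOC100244525 stayed below 1 TPM in every group mean. Whether the neighbours share fragments with TL1 or TL3 was not tested.

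Among other genes of defence, chitinases are the second large class of haze-forming berry protein, and 5 could be matched by symbol. From E to V 1 of the 5 rose and 1 fell, at a median log2 fold change of -0.54 for the 5 and -0.016 for all genes, and 5.89% of all genes rose and 7.36% fell at this step. CHI4D, a class IV chitinase gene, was the one that rose. It averaged 196 ± 125 TPM at E, 8966 ± 4837 TPM at V and 8593 ± 2673 TPM at M (SD over 6 zones), with a log2 fold change of 5.69 (SE 0.10, limma adjusted p = 7.04e-35) and higher values in all 6 zones. CHIT3 was the one that fell, with a log2 fold change of -2.13 (SE 0.13, limma adjusted p = 5.75e-18) and a group mean of at most 23.8 TPM. CHI4C had a log2 fold change of 0.87 (SE 0.10, limma adjusted p = 2.45e-10), short of the limit on the change, and was highest in M-HSB with 409 ± 77.8 TPM (SD, n = 3).

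CHI4D resembled the thaumatin-like genes in some zones only. Its highest group was that of TL3, whereas TL1 was highest in V-ZHYS, and its lowest V group was that of both genes. In XG, where TL1 and TL3 were lower at M, CHI4D had 7586 ± 657 TPM at V and 7484 ± 255 TPM at M. It was highest in V-CC with 16511 ± 572 TPM, followed by M-HSB with 13165 ± 445 TPM and V-ZHYS with 12200.4 ± 1621 TPM, and it was lowest at V in V-HSB with 2354 ± 824 TPM (SD, n = 3 for each group). V-HSB had 17.9% of the M-HSB level, against 101% to 161% in the other zones. At the enlargement period it was lowest in E-ZHYS (29.6 ± 5.84 TPM) and not in E-HSB (139 ± 33.0 TPM), in which it differed from TL1. From V to M 0 of the 5 chitinase genes rose and 0 fell past the thresholds, where 1.69% of all genes rose and 1.81% fell. At an unadjusted p below 0.05 and any size of change, limma found 1 that was higher (CHI4C) and 0 that were lower. LOC100232985, with a log2 fold change of -0.28, just missed this limit (limma unadjusted p = 0.052). How many of all genes meet this looser rule was not computed.

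**Figure D5:**
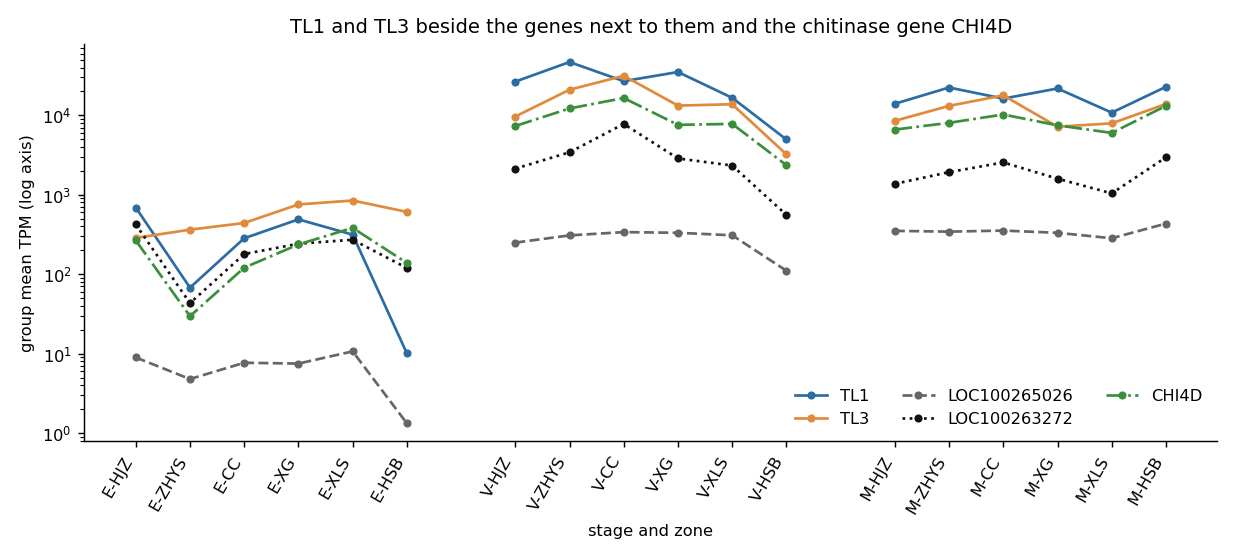
Group mean TPM on a log axis of TL1, TL3, the genes next to them (LOC100265026 beside TL3, LOC100263272 beside TL1) and CHI4D in the 18 groups, ordered by stage; lines only join the points of 1 gene. All 5 genes have their lowest V mean in V-HSB, and at the enlargement period TL1 and LOC100265026 are lowest in E-HSB (10.1 and 1.33 TPM).

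Of the other PR genes in the lists, those of family 1 were not higher at V. PR1 fell from E to V, with a log2 fold change of -2.34 (SE 0.15, limma adjusted p = 1.81e-17), with group means of at most 40.9 TPM, although V-HSB (9.63 ± 3.40 TPM) was as high as E-HSB (9.39 ± 2.43 TPM), and PR-1 stayed below 1 TPM in every group. G1, a glucanase gene, had a log2 fold change of 1.02 (SE 0.17, limma adjusted p = 9.63e-07) at group means of at most 12.7 TPM. Its call at the limit was lost when some single libraries were left out. The XLS means did not rise (V-XLS 6.27 ± 0.577 TPM, E-XLS 12.7 ± 16.5 TPM), but the E-XLS mean rested on its highest library. The E-XLS libraries ran from 3 to 31.7 TPM and those of V-XLS from 5.93 to 6.94 TPM.

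The grape ripening-induced protein (GRIP) genes, found in earlier work as transcripts that increase in ripening berries, gave a comparison for the timing. Of 11 matched by symbol, 7 rose from E to V and 0 fell, where 5.89% of all genes rose and 7.36% fell, at a median log2 fold change of 2.67 for the 11 and -0.016 for all genes. From V to M 0 of the 11 rose and 1 fell (GRIP68), where 1.69% of all genes rose and 1.81% fell. Beside the counts of 0, limma at an unadjusted p below 0.05 and any size found 0 GRIP genes lower at V than at E. From V to M the same rule found 4 GRIP genes that were higher and 4 that were lower. The share of all genes that meet this looser rule was not computed. The fall of GRIP68 was lost when zone means were the unit (limma adjusted p = 0.0956). GRIP4 was the most abundant, with 120.2 ± 111 TPM at E, 30661 ± 10067 TPM at V and 54529 ± 8412 TPM at M (SD over 6 zones) and a log2 fold change of 8.63 (SE 0.11, limma adjusted p = 1.36e-39). GRIP61 averaged 1169 ± 1115 TPM at E, 18159 ± 7263 TPM at V and 14069.5 ± 5273 TPM at M (SD over 6 zones), with a log2 fold change of 5.56 (SE 0.09, limma adjusted p = 5.70e-37). The further GRIP genes that rose, GRIP22, GRIP28, GRIP31, GRIP32 and MRIP1 (grip15), had log2 fold changes between 2.12 and 8.24. In 9 of the 11 the lowest V group was V-HSB, as for TL1 and TL3, while among the 3965 genes with a V group mean of at least 50 TPM this held for 16.6%. Those 3965 genes were taken whether they rose from E to V or not. The share among genes that rose was not computed, so the counts do not set the GRIP genes apart from other rising genes. Relative to M-HSB, the V-HSB level was 22.5% for GRIP4 and 70.6% for GRIP61. Unlike TL1 and TL3, GRIP4 was higher at M than at V in all 6 zones.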

How the data were processed

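The TPM values are those the authors deposited: clean reads were mapped with HISAT2 to the grapevine genome, for which the study's methods point to Ensembl Plants release 23, fragments per gene were counted with featureCounts, and TPM were computed per library. The tools' versions, the name of the assembly and the handling of multi-mapping fragments are not given in the sources used here. The table holds 25133 genes and 54 libraries with 0 columns left out, and values have 2 decimals. Symbols came from the RefSeq gene table of ASM3070453v1 (23256 IDs matched), whose coordinates were used only for the order of genes. Groups follow the sample labels. Stage changes were estimated with limma 3.58.1 (R 4.3.3) on log2(TPM + 1), 18 group means in one fit of all genes without a filter, which had been tested on simulated data, and p-values were adjusted by Benjamini-Hochberg over all genes. Except where zone means were the unit, SE and p-values rest on the replicate spread within groups. Those of a mean over zones then leave out the differences between zones. The fold changes understate those of low genes. Other values used Python 3.11.15, numpy 2.4.6 and pandas 2.3.3. The members and lists were chosen with earlier results of these data known, and the lists were matched by symbol. Genes named are TL1, TL3, the 5 genes most like each, and for each list the 2 genes with the highest group mean. The 3 protein-coding neighbours on either side, single list members outside this rule (CHIT3, GRIP68, MRIP1 and the further GRIP genes that rose) and the alternatives of the lists were chosen after their values were seen. The alternatives were another pseudocount, median-of-ratios scaling, dropping genes with a mean below 1 TPM, quantile normalization, the replicate block, zone means as the unit, leaving out HSB, and leaving out each library.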

Additional observations from a re-analysis of the deposited data

Results flagged for a closer look

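From color transition to maturity TL1 went in opposite directions in HSB and in the other 5 zones. Every M-HSB library was above every V-HSB library, while in HJZ, ZHYS, CC, XG and XLS every M library was below every V library. In XLS the gap was narrow, since the highest M library had 11105 TPM and the lowest V library 11169 TPM. Without replicate 2 of V-XLS the TL1 change in XLS was -0.08. The log2 fold change of TL1 in HSB exceeded that in HJZ by 3.20, in ZHYS by 3.33, in CC by 3.003, in XG by 2.96 and in XLS by 2.76. For TL3 the same held against 4 zones, with differences of 2.86 from ZHYS, 3.003 from CC, 3.06 from XG and 2.90 from XLS, whereas in HJZ the libraries of the 2 stages overlapped. These differences were not tested, because the timing of the induction in each zone was part of the choice of the genes.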

How the results depend on the processing

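The direction of the stage changes of TL1 and TL3, in each zone and in the mean over the zones, was the same under all alternatives that were run, but their size was not. Quantile normalization and median-of-ratios scaling moved single zones. From E to V, TL3 in HJZ was 4.14 and 4.58 with them, in place of 5.09. Quantile normalization gave TL3 3.47 in XG and 3.34 in XLS, in place of 4.13 and 3.95, and TL1 9.55 in HSB, in place of 8.76. Median-of-ratios scaling gave TL1 7.16 in CC, in place of 6.58. From V to M, TL1 in HJZ was -0.32 with quantile normalization, in place of -0.93. In HSB it was 2.80 with median-of-ratios scaling, in place of 2.27. Without zone HSB the mean changes from E to V were 6.61 for TL1 and 5.04 for TL3 and those from V to M -0.78 and -0.65, in place of 6.97, 4.59, -0.27 and -0.18 on the log2 scale, and quantile normalization gave 4.27 for TL3 from E to V. It also gave a mean change of TL1 from V to M of -0.02, which is close to no change. In XG this TL1 change was -0.24 in place of -0.69, whereas in XLS it was -0.83 in place of -0.49. Leaving out single libraries gave 6.90 to 7.02 and 4.54 to 4.65 from E to V and -0.32 to -0.20 and -0.24 to -0.13 from V to M for TL1 and TL3, and a summed share of TPM of 0.0826% to 0.0887% at E, 3.96% to 4.37% at V and 2.90% to 3.01% at M. For the TL1 to TL3 ratio a comparison of each zone with the others by exact permutation had been planned. This test cannot decide whether the zones differ, since the ratio is built from the values that chose the genes. It also sets 3 libraries of a zone against 15 libraries of 5 zones as if these were alike. Its p-values and their counts are therefore not given. Without single libraries the ratio difference from the other zones ran from -5.13 to -4.84 in E-HSB and from 3.20 to 3.60 in E-HJZ. It ran from -1.28 to -1.15 in V-CC, from -1.10 to -0.92 in M-CC and from 1.005 to 1.16 in M-XG. With medians the difference of E-HJZ was 2.54, in place of 3.46. That of E-XLS turned to -0.52 and that of M-HJZ to -0.033 with medians. Without single libraries these 2 differences ran from -0.10 to 0.42 and from -0.11 to 0.15, and that of M-HSB from -0.032 to 0.11. The replicate number as a block moved no stage change of TL1 or TL3. Libraries with the same number are not known to be paired, since their deviations from the group means correlated above 0.1 in 6 of 54 pairs and 20 of the 54 correlated best with their own number. Among the lists, whose alternatives were chosen after seeing the data, the chitinase genes that rose from E to V were 2 without zone HSB, and those that fell were 2 with a pseudocount of 0.1 or quantile normalization and 1 to 2 without single libraries. The GRIP genes that fell from V to M were 2 without zone HSB and 0 when zone means were the unit. The planned list of other thaumatin-like genes and its alternatives were not run, because the reference used here gives no protein names or sequences. TPM keeps no depth, so the precision of low values such as TL1 in E-HSB is known from 3 libraries alone.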

Other observations

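TL1 was not alone in its very low level in E-HSB. GRIP61 had 0.387 ± 0.419 TPM there, against 379.9 ± 107 TPM in E-XG, the next lowest group, and 2978 ± 983 TPM in E-ZHYS. MRIP1, another ripening-induced gene (grip15), had 30.8 ± 8.04 TPM in E-HSB against 1229 ± 357 TPM in E-ZHYS and 6178 ± 456 TPM in E-CC. LOC100247559, the gene most like TL1, had 0.0733 ± 0.0751 TPM in E-HSB against 3.68 ± 0.202 TPM in E-ZHYS (SD, n = 3 throughout). Its choice by likeness to TL1 over the same groups would bring this low value with it, so it is no separate case. Of the 12190 genes with a group mean of at least 10 TPM, 191 or 1.57% were at least 3-fold lower in E-HSB than in every other E group with the next lowest at 1 TPM or more. By the same rule 125 genes were lowest in E-HJZ, 24 in E-CC, 15 in E-ZHYS, 7 in E-XG and 0 in E-XLS. These genes were looked up after the values of TL1 were seen, and no test was made.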
